A study of Homo sapiens with 12 samples.

Results

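The genes described here are FOXO1, FOXO3 and FOXO4, which encode FOXO transcription factors, and 7 genes that FOXO factors are known to switch on: TSC22D3, CCNG2, KLHL24, TXNIP, CITED2, RBL2 and FBXO32. They were taken as the 36 probe sets that the platform annotation pairs with 1 of these 10 symbols alone, out of 54613 probe sets and 19775 genes. Another 3 probe sets, which the annotation gives to both FOXO3 and FOXO3B, were left out. The choice of genes rested on how they differed between cells given the Raf inhibitor SB590885 and solvent control cells, so values and counts of calls for these genes in that comparison are a description. The MEK inhibitor PD325901 was also compared with the control, by a test of each probe set. That comparison uses the same 4 DMSO arrays as the one behind the choice of genes, so for these genes it is not independent of the choice.

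Gene expression was measured on Affymetrix HG-U133 Plus 2.0 arrays in INA-6, an established human myeloma cell line that depends on interleukin-6 and was grown with 2 ng/ml of it in every group. Of the 12 arrays, 4 came from cells given the solvent DMSO, 4 from cells given SB590885 and 4 from cells given PD325901. Per the study's title, its question was what Raf and PI3K-dependent signalling contribute to myeloma cell survival. All groups are 1 cell line, and neither dose nor treatment time is stated in the labels. The design text calls the 4 arrays of a group biological replicates and says nothing more of how they arose, so p-values measure the spread between these samples. A second label marks the arrays numbered 3 and 4 of every group with R, whose meaning is not given.

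FOXO factors are forkhead transcription factors that carry the signal of growth factor withdrawal to the genome. While PI3K and AKT are active, AKT phosphorylates FOXO proteins, which then bind 14-3-3 proteins and stay in the cytoplasm; ERK can phosphorylate FOXO3 as well and mark it for degradation. Freed of phosphorylation, they enter the nucleus and switch on genes of cell cycle arrest, cell death and stress resistance, and FOXO3 is among the genes that FOXO factors induce. An mRNA level says nothing of where the FOXO protein is.

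The DNA element that FOXO factors bind has GTAAACA at its core. It was searched on both strands (reverse TGTTTAC) in the 300 bases around each RefSeq gene start, 250 before it and 50 after. RefSeq promoter entries on GRCh38.p14 matched 9 of the 10 genes, all but FBXO32, with 19 windows. The motif stood in 3 of these windows, 1 each of FOXO4, TSC22D3 and TXNIP, and in 3.42% of all 35116 windows. The shorter TAAACA, which GTAAACA contains, stood in 6 windows of 5 genes, adding FOXO3 and RBL2, and in 12.3% of all windows. The 250 bases before the start are shown for the 3 targets with the largest differences under SB590885 and for TXNIP, whose window holds the motif although its difference was small. Capitals mark the motif. They lie at chrX:107717063-107717312 (minus strand) for TSC22D3, chr1:145996580-145996829 (minus strand) for TXNIP, chr4:77156957-77157206 (plus strand) for CCNG2 and chr3:183635373-183635622 (plus strand) for KLHL24.
TSC22D3: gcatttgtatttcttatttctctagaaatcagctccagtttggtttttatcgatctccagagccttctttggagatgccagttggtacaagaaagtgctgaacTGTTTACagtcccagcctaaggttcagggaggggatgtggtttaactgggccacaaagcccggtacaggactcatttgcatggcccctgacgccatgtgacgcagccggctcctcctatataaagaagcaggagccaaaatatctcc
TXNIP: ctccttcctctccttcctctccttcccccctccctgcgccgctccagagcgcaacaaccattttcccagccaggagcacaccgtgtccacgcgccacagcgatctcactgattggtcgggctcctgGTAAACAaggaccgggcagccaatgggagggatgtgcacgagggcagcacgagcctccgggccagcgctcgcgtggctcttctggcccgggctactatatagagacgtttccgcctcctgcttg
CCNG2: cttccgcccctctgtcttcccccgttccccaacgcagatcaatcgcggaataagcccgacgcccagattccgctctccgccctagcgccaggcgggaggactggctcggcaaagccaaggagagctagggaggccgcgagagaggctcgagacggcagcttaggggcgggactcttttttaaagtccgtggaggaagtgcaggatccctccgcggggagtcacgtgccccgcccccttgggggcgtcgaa
KLHL24: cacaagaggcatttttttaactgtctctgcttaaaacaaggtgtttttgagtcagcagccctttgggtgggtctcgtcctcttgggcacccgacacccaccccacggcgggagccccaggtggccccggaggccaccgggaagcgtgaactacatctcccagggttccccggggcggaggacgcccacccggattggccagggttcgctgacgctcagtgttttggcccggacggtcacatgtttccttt
In TSC22D3 the motif began 147 bases before the start, in the reverse orientation, and was found in 1 of the gene's 4 windows. In TXNIP it began 124 bases before the start and reads as spelled. The CCNG2 and KLHL24 windows have no capitals because these letters do not occur in them; a match or its lack describes the letters alone.

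The deposited values are on a log2 scale on which 1 unit is a doubling. Over the 12 arrays the median of a single array ran from 6.88 to 6.97 and its lowest value from 5.85 to 6.01. The mean of a probe set over all arrays had a median of 6.92, and 25 of the 36 FOXO gene probe sets reached it, with 0 of the 7 for FBXO32. The arrays without the R mark were more widely spread over probe sets (SD 1.54 ± 0.011, n = 6) than those with it (1.43 ± 0.026, n = 6). Arrays with the same replicate number deviated together, so calls are also given with the replicate number as a block. Plasma cell markers were above 6.92 for 9 of 9 genes. Their array medians were lower with SB590885 (11.14 to 11.57) than with DMSO (11.59 to 11.84), and ran from 11.76 to 12.10 with PD325901. Markers of B cells exceeded 6.92 for 2 of 3 genes, of T and NK cells for 3 of 8, of monocytes for 1 of 4 and of fibroblasts for 2 of 5. The value 6.92 is a median and not a limit of detection. The highest T and NK cell marker mean was 7.42, so exceeding 6.92 does not show that such cells were present. Interferon response genes had a median of 11.6 on DMSO array 2, 11.2 on PD325901 array 2 and 9.15 on SB590885 array 2, the highest of each group. Arrays 1, 3 and 4 had 6.55, 6.76 and 6.95 with DMSO and 6.62, 6.82 and 7.11 with PD325901. With SB590885 they had 7.91, 7.42 and 6.92. The signal at the 3' end of the GAPDH control exceeded that at the 5' end by 0.37 ± 0.033 with DMSO, 0.44 ± 0.035 with SB590885 and 0.43 ± 0.057 with PD325901 (log2, n = 4 each). The part of these values in the results below was not tested, and in a bulk sample fewer cells of a type and less RNA per cell cannot be told apart.

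FOXO3 read higher under both inhibitors in every replicate number, and in 3 of its 4 probe sets highest under SB590885 in each. Its probe set 224891_at read 10.29, 10.37, 9.94 and 9.77 on DMSO arrays 1 to 4. With PD325901 it read 10.71, 10.87, 10.05 and 10.24. SB590885 gave 11.13, 11.15, 10.68 and 10.28. The arrays numbered 1 and 2 were the highest of each group, and within every replicate number the order was DMSO, PD325901, SB590885, although the groups overlap when the numbers are set aside. SB590885 exceeded DMSO by 0.71 (10.81 ± 0.42 against 10.09 ± 0.29, SD, n = 4), a ratio of 1.64.

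In each replicate number 204131_s_at and 224889_at ran in the same order. Probe set 204131_s_at averaged 8.79 ± 0.27 with DMSO, 9.15 ± 0.37 with PD325901 and 9.52 ± 0.52 with SB590885 (SD, n = 4). For 224889_at the DMSO arrays lay between 8.48 and 8.61, the PD325901 arrays between 8.62 and 9.01 and the SB590885 arrays between 8.65 and 9.33, so neither inhibitor overlapped with DMSO while the inhibitors overlapped with each other. The fourth, 231548_at, differed by 0.19 under SB590885 and by 0.12 under PD325901. It did not keep that order: in replicate number 2 PD325901 read 7.36 and SB590885 7.28, and its highest array in each group was number 3 (7.47 for DMSO, 7.72 for SB590885 and 7.51 for PD325901).

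With PD325901 the FOXO3 difference in 224891_at was 0.37, higher in 4 of 4 pairs of the same number. The limma fit over 12 arrays leaves out the pairing by number. In that fit the difference had an SE of 0.23, a 95% interval of -0.12 to 0.87 and an adjusted p of 1.00. With the replicate number as a block FOXO3 rose in 224891_at (adjusted p = 0.00911) and in 204131_s_at (adjusted p = 0.0170), whose difference was 0.36. Its other probe sets, 224889_at and 231548_at, did not pass with the block (adjusted p = 0.0744 and 0.267). Leaving out each replicate number in turn from that blocked fit gave adjusted p-values from 0.00328 to 0.0476 for 224891_at; for 204131_s_at the call was lost without number 1 (adjusted p = 0.0730). Without the arrays numbered 2, which hold the 2 with high interferon response genes, the difference of 224891_at was 0.33 with PD325901 and 0.69 with SB590885.

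FOXO1 and FOXO4 showed no such pattern. FOXO1, the relative of FOXO3 known from B cell development and insulin signalling, averaged 8.38 ± 0.19 with DMSO, 8.43 ± 0.13 with SB590885 and 8.31 ± 0.20 with PD325901 in probe set 202724_s_at (SD, n = 4). Its 3 probe sets differed from DMSO by 0.01 to 0.09 under SB590885 and by -0.07 to -0.01 under PD325901. FOXO4, an X-linked member of the family, has 1 probe set, 205451_at, which stood at 7.05 ± 0.02 with DMSO, 7.06 ± 0.06 with SB590885 and 7.02 ± 0.11 with PD325901. For the PD325901 difference the 95% interval was -0.32 to 0.18 in FOXO1 202724_s_at and -0.15 to 0.09 in FOXO4.

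**Figure D1:**
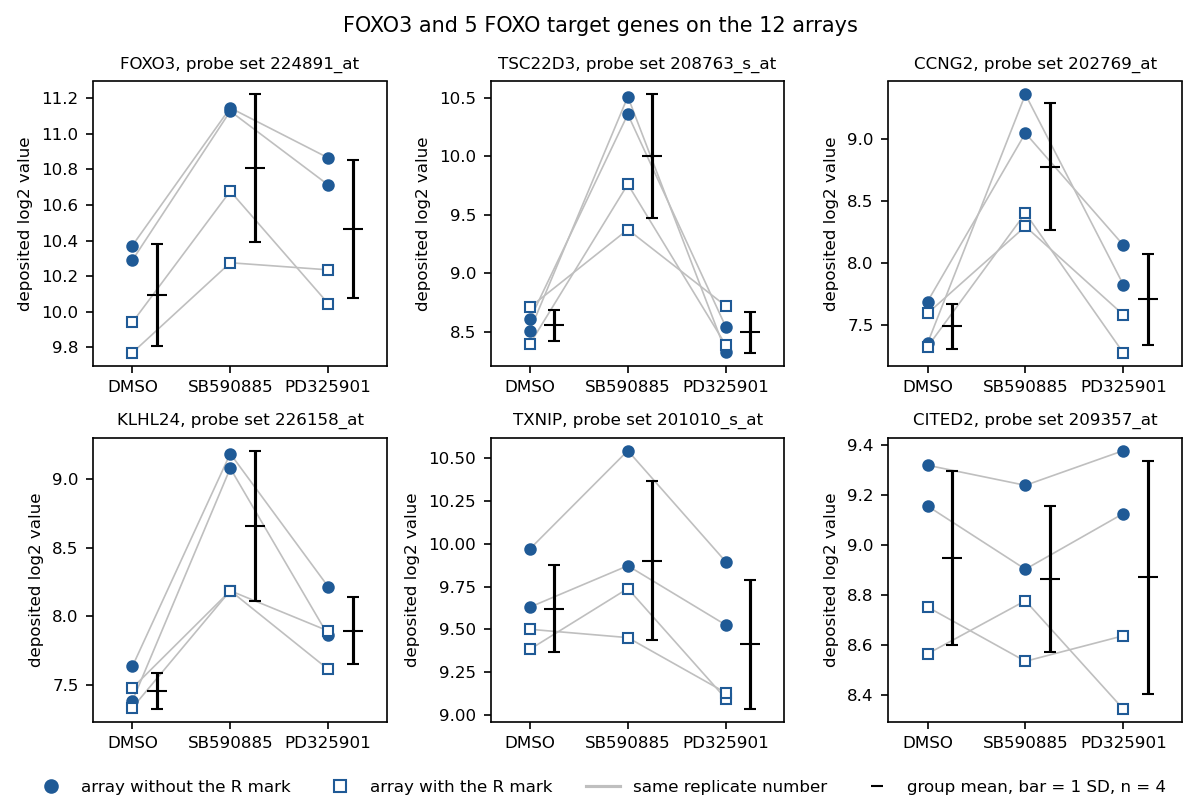
Deposited log2 values (vertical axis) of FOXO3 and 5 FOXO target genes, 1 probe set each, in the 3 groups (horizontal axis); points are arrays, filled without and open with the R mark, grey lines join arrays of the same replicate number, and black bars are the group mean with 1 SD (n = 4). For TSC22D3 the 4 SB590885 arrays lie between 9.37 and 10.51 and the 8 others between 8.33 and 8.72, while for CITED2 the 3 groups overlap.

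Among the targets, TSC22D3, CCNG2 and KLHL24 stood furthest above DMSO under SB590885. TSC22D3, which encodes the glucocorticoid-induced leucine zipper GILZ, a repressor of inflammatory and growth signalling, read 8.51, 8.61, 8.40 and 8.71 on DMSO arrays 1 to 4 in probe set 208763_s_at. SB590885 arrays read 10.51, 10.36, 9.76 and 9.37. PD325901 arrays read 8.33, 8.54, 8.39 and 8.72. Every SB590885 array was above all 8 others, and the DMSO and PD325901 arrays overlapped. The difference between SB590885 and DMSO was 1.45, a ratio of 2.73, and it was 1.34 without the arrays numbered 2.

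PD325901 differed from DMSO by -0.06 in this TSC22D3 probe set (SE 0.21, limma adjusted p = 1.00), with a 95% interval of -0.51 to 0.39. Missing the threshold does not show that the level was the same. The other TSC22D3 probe sets lay near the median of probe set means, 6.92, or below it. Probe set 207001_x_at averaged 7.02 with DMSO and 7.13 with SB590885, and 235364_at averaged 6.64 and 6.62. Of the 3 TSC22D3 probe sets, 1 had SB590885 arrays apart from the DMSO arrays.

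CCNG2 encodes cyclin G2, an atypical cyclin linked to exit from the cell cycle. Probe set 202769_at read 7.35, 7.69, 7.32 and 7.59 on DMSO arrays 1 to 4. SB590885 gave 9.36, 9.04, 8.40 and 8.29. With PD325901 the values were 7.82, 8.14, 7.27 and 7.58. The SB590885 arrays lay above all others, whereas PD325901 arrays 1 and 2 were above the DMSO arrays and arrays 3 and 4 among or below them. SB590885 exceeded DMSO by 1.29 (8.77 ± 0.51 against 7.49 ± 0.18, SD, n = 4), a ratio of 2.44.

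Of the 5 CCNG2 probe sets, 4 had SB590885 arrays that did not overlap with DMSO. Their differences were 1.29 for 202769_at, 1.02 for 202770_s_at, 0.53 for 211559_s_at and 0.32 for 228081_at, while 1555056_at differed by 0.07. The spread of 228081_at was small (6.87 ± 0.03 with SB590885 and 6.55 ± 0.09 with DMSO, SD, n = 4). PD325901 differed from DMSO by 0.04 to 0.23 over the 5 probe sets, and in 202769_at by 0.22 (SE 0.23, 95% interval -0.29 to 0.73, limma adjusted p = 1.00).

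KLHL24 encodes a substrate adaptor of cullin-3 ubiquitin ligases. In probe set 226158_at DMSO arrays 1 to 4 read 7.63, 7.38, 7.33 and 7.48. PD325901 arrays read 8.22, 7.86, 7.61 and 7.89. SB590885 arrays read 9.19, 9.08, 8.19 and 8.19. Within each replicate number the order was DMSO, PD325901, SB590885, as for FOXO3. The mean difference was 1.20 for SB590885 and 0.44 for PD325901.

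In KLHL24 221985_at the groups were apart from DMSO on every array: DMSO read 7.46 to 7.63, PD325901 7.79 to 7.95 and SB590885 8.03 to 8.84. The PD325901 difference there was 0.36 (SE 0.15, 95% interval 0.05 to 0.68), higher in 4 of 4 pairs. It did not pass the limma fit over 12 arrays (adjusted p = 0.755) or the blocked fit (adjusted p = 0.0583), and it passed when only the PD325901 and DMSO arrays were fitted (adjusted p = 0.0440). Under SB590885, 221986_s_at differed by 0.79, 242088_at by 0.38 and 206551_x_at, the KLHL24 probe set with the highest mean, by 0.28, with 9.65 ± 0.08 for DMSO and 9.94 ± 0.16 for SB590885. Under PD325901 these 3 differed by 0.19, 0.14 and 0.00, and 206551_x_at was lower than DMSO in replicate number 4 (9.55 against 9.73).

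TXNIP encodes an arrestin-like protein that binds thioredoxin and restrains glucose uptake. Its probe set 201010_s_at read 9.63, 9.97, 9.38 and 9.50 with DMSO, 9.87, 10.54, 9.74 and 9.45 with SB590885 and 9.53, 9.90, 9.10 and 9.13 with PD325901 (arrays 1 to 4). The groups overlapped, SB590885 was higher than DMSO in 3 of 4 pairs, and PD325901 was lower than DMSO in 4 of 4. All 3 TXNIP probe sets were lower with PD325901 in every pair, by 0.21, 0.09 and 0.19 on the log2 scale for 201010_s_at, 201009_s_at and 201008_s_at. None passed (limma adjusted p = 1.00 for each, and 0.121 to 0.484 with the block). SB590885 minus PD325901 was 0.49, 0.24 and 0.22 in the same order, positive in 4 of 4 pairs each.

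CITED2, RBL2 and FBXO32 differed little or from a low level. CITED2, a transcriptional regulator that competes with HIF-1 for CBP and p300, averaged 8.95 ± 0.35 with DMSO, 8.86 ± 0.29 with SB590885 and 8.87 ± 0.47 with PD325901 in probe set 209357_at, and its values followed the R mark, with DMSO at 9.16 and 9.32 without it and 8.56 and 8.75 with it. RBL2, which encodes the pocket protein p130 that keeps E2F target genes silent in resting cells, averaged 9.77 ± 0.21, 9.73 ± 0.27 and 9.66 ± 0.25 in probe set 212331_at in that order. The split by the R mark was not particular to CITED2. In RBL2 212331_at, TXNIP 201010_s_at and FOXO1 202723_s_at the arrays without the mark also lay above those with it in every group. The 95% interval of the PD325901 difference was -0.59 to 0.43 for CITED2 209357_at and -0.45 to 0.22 for RBL2 212331_at. Of the other CITED2 probe sets, 227287_at was lower with SB590885 than with DMSO in every pair of the same number. Its difference was -0.11 (limma adjusted p = 0.449), and that of 207980_s_at was -0.05.

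FBXO32 encodes atrogin-1, an F-box protein of a ubiquitin ligase known from muscle wasting. All its 7 probe sets had means under the median of probe set means. In 225803_at DMSO read 6.81, 6.84, 6.76 and 6.67, SB590885 7.27, 7.08, 7.23 and 6.89 and PD325901 6.83, 6.85, 6.89 and 6.83 (arrays 1 to 4). The SB590885 arrays lay above the DMSO arrays in this probe set, by 0.35 on average, and in 225328_at, by 0.34. The other 5 differed by -0.01 to 0.14. PD325901 differed from DMSO by 0.00 to 0.10 over the 7.

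Counted over the 10 genes, 10 of 36 probe sets passed an adjusted p under 0.05 between SB590885 and DMSO, all higher, from TSC22D3 (1), CCNG2 (4), KLHL24 (3) and FBXO32 (2), where 1.96% of all probe sets were called and 1.01% were called as higher. Since the genes were chosen on this contrast, nothing is read from that count. With the block 17 were called, all higher, beside 13.4% of all probe sets (6.56% higher), the additions including FOXO3 and TXNIP. SB590885 arrays lay entirely above DMSO arrays for 11 of the 36, beside 3.84% of all probe sets. The median difference was 0.15 over the 36 and 0.005 over all. The count was 2 without SB590885 replicate 2, 6 without SB590885 replicate 1, 4 without DMSO replicate 1 or DMSO replicate 3, 6 without DMSO replicate 2, and 0 without the arrays numbered 2 of all groups, where 0.209% of all probe sets were called. For the fits without 1 array the share of all probe sets is not given, so nothing is read from those counts.

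Between PD325901 and DMSO, 0 of the 36 probe sets were called by limma, where 0.346% of all probe sets were (189, of which 159 were lower). At an unadjusted p under 0.05 there was 1 of 36, KLHL24 221985_at, beside 5.62% of all probe sets. With the block 2 of 36 (5.56%) were called, both FOXO3 and higher, beside 4.81% of all probe sets (1.2% higher), and with the R mark as a term the same number, beside 3.69%. The arrays lay entirely above DMSO for 2 of 36, FOXO3 224889_at and KLHL24 221985_at, beside 1.37% of all, and entirely below for 0, beside 2.16%. The median difference was 0.02 over the 36 and -0.002 over all probe sets. A share of called probe sets near that of all probe sets is no result about the FOXO genes as a group.

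SB590885 minus PD325901 shares the SB590885 arrays with the contrast behind the choice of genes and is likewise a description. Of 36 probe sets 3 were called, TSC22D3 208763_s_at, CCNG2 202769_at and CCNG2 228081_at, all higher, beside 1.78% of all (1.23% higher), and 18 with the block, all higher, beside 12.9% (8.83% higher). The differences were 1.51 for TSC22D3 208763_s_at, 1.07 for CCNG2 202769_at, 0.76 for KLHL24 226158_at and 0.34 for FOXO3 224891_at. SB590885 arrays lay entirely above PD325901 arrays for 10 of 36, beside 4.04% of all. Without SB590885 replicate 1 the count was 1, without SB590885 replicate 3 it was 5 and without SB590885 replicate 4 it was 8. The shares of all probe sets in these fits are not given, and nothing is read from the counts.

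**Figure D2:**
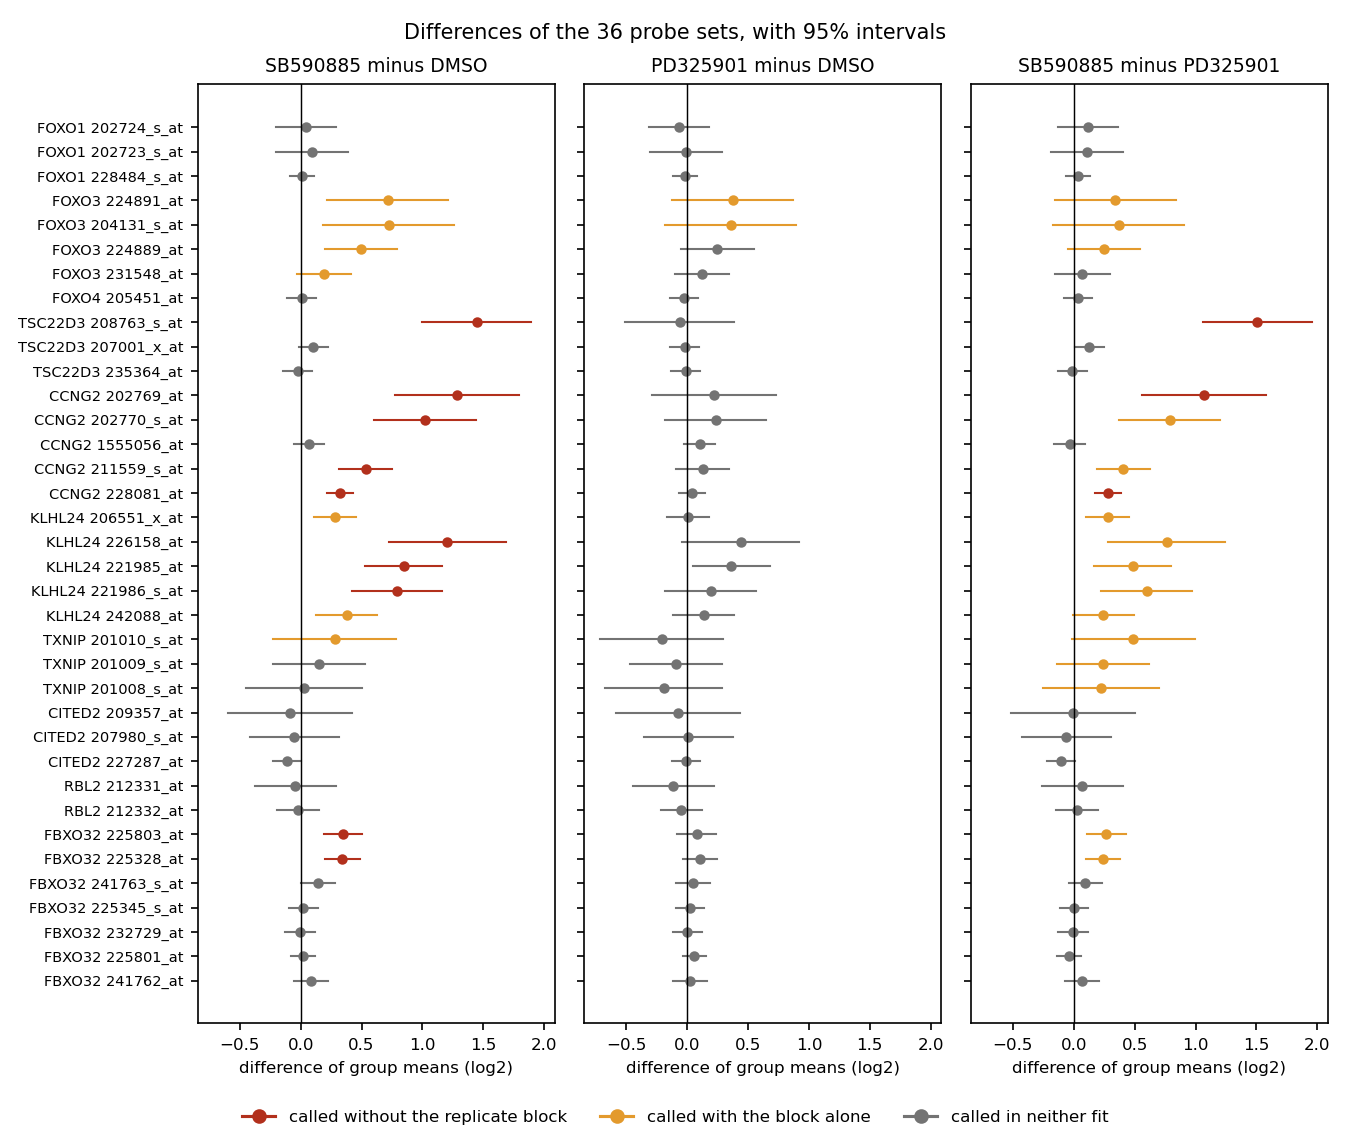
Differences of group means on the log2 scale (horizontal axis) with 95% intervals of the limma fit over 12 arrays, for the 36 probe sets (rows) in the 3 comparisons; red marks a call without the replicate block, orange a call with the block alone and grey neither. TSC22D3 208763_s_at stands at 1.45 for SB590885 minus DMSO and at -0.06 for PD325901 minus DMSO, and the 2 orange points of the middle panel are FOXO3.

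SB590885 stood above DMSO within each set of arrays in the probe sets that differed most, by larger values without the R mark. For TSC22D3 208763_s_at it was 1.88 over arrays 1 and 2 and 1.02 over arrays 3 and 4, which carry the R mark. It was 1.68 and 0.89 for CCNG2 202769_at, 1.62 and 0.78 for KLHL24 226158_at and 0.81 and 0.62 for FOXO3 224891_at. FBXO32 225803_at had 0.35 in both. A limma interaction term for the difference between the sets called 0 of 36 probe sets (lowest adjusted p = 0.144) and 0.011% of all probe sets. At an unadjusted p under 0.05 there were 13 of 36, beside 7.28% of all probe sets. The term uses the arrays behind the choice of genes, so nothing is read from that count.

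**Figure D3:**
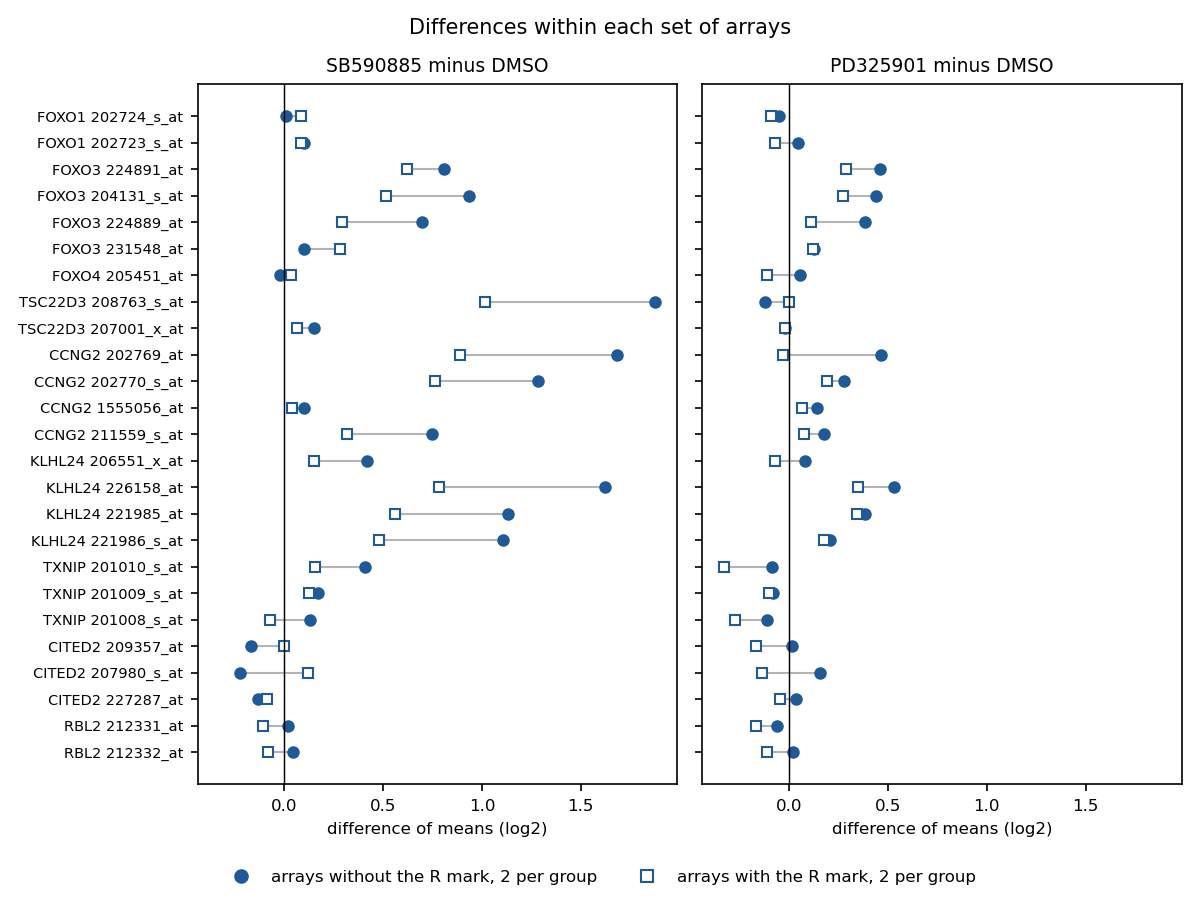
Differences of means on the log2 scale (horizontal axis) within the arrays without the R mark (filled circles, 2 per group) and with it (open squares, 2 per group), for the 25 probe sets with a mean at or above 6.92. For SB590885 minus DMSO TSC22D3 208763_s_at has 1.88 and 1.02, and all probe sets of CCNG2 and KLHL24 shown are further right without the mark.

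A wider list of genes known as FOXO targets, 41 of them measured and each taken as its brightest probe set, shows how far the pattern extended; it was drawn up with results of these arrays known and is not independent evidence. Between SB590885 and DMSO 3 rose and 0 fell in the limma fit over 12 arrays, with 38 not passing. In that fit 1.01% of all probe sets were called as higher and 0.947% as lower. BCL6, a repressor of germinal centre B cells, rose by 0.76 (8.98 ± 0.34 against 8.22 ± 0.20, SD, n = 4, adjusted p = 0.0272). KLF2, a factor of lymphocyte quiescence and trafficking, rose by 0.60 (adjusted p = 0.0420), and SESN1, a stress-induced brake on mTORC1, by 0.34 (adjusted p = 0.0252). The count was 0 without SB590885 replicate 1, SB590885 replicate 2, DMSO replicate 1 or DMSO replicate 3 and after centring each array on its median, 1 without SB590885 replicate 3, DMSO replicate 2 or DMSO replicate 4, and 5 without SB590885 replicate 4. With the block 16 rose and 1 fell, where 6.56% of all probe sets were higher and 6.83% lower, and 8 rose when replicate number 1 was left out of that fit. For this and the other gene lists the shares are over all probe sets, those without a symbol included. Each list gene is its brightest probe set, and a share among such probe sets is not given. A list count and the share beside it are therefore not a like comparison. The median difference was 0.11 over the list and 0.004 over all genes.

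With PD325901 0 of the 41 targets were called by limma, beside 0.346% of all probe sets. At an unadjusted p under 0.05 there were 7, beside 5.62% of all probe sets. With the block 6 rose and 2 fell, where 1.2% of all probe sets were higher and 3.61% lower. The 6 were CDKN1A (by 0.55), GADD45A (by 0.60), TRIB1 (by 0.58), BCL2L11 (by 0.53), MXI1 (by 0.40) and CDKN1B (by 0.32), and the 2 were PMAIP1 (-0.47) and RICTOR (-0.44), all named after their values were seen. CDKN1A and CDKN1B encode the CDK inhibitors p21 and p27, and BCL2L11 the pro-apoptotic protein BIM. BCL6 and KLF2 differed from DMSO by 0.07 and 0.00 with PD325901. In the comparison of the inhibitors both were higher with SB590885, BCL6 by 0.69 and KLF2 by 0.60 (limma adjusted p = 0.0428 and 0.0427); both calls were lost without SB590885 replicate 1 or 2 or PD325901 replicate 2, 3 or 4, and after centring. TNFSF10, the death ligand TRAIL, differed from DMSO by -1.31 with SB590885 and did not pass in the limma fit over 12 arrays. Its DMSO arrays ran from 8.54 to 12.09, further apart than that difference, so no fall is read from it.

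**Figure D4:**
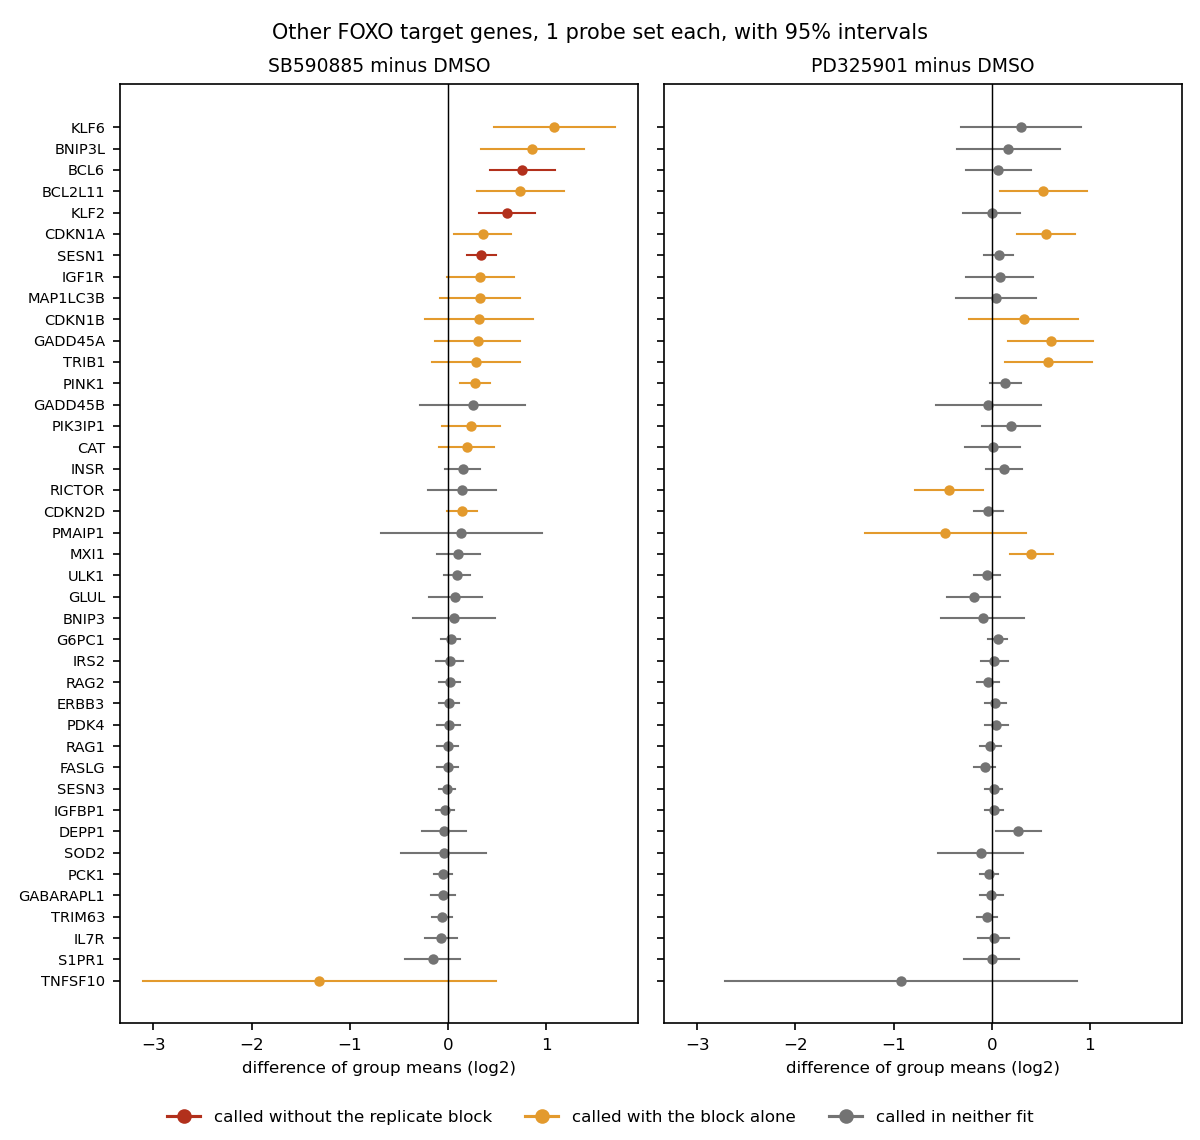
Differences of group means on the log2 scale (horizontal axis) with 95% intervals for 41 other FOXO target genes (rows, ordered by the SB590885 difference), 1 probe set each; colours are as for the 36 probe sets. BCL6, KLF2 and SESN1 are red for SB590885 minus DMSO, and no gene is red for PD325901 minus DMSO.

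Kinases, phosphatases and partners that control FOXO proteins gave 34 measured genes, of which 0 passed between SB590885 and DMSO (6 at an unadjusted p under 0.05; 4 rose and 5 fell with the block) and 0 between PD325901 and DMSO (5 unadjusted; 1 rose and 6 fell with the block). The shares of all probe sets at an unadjusted p under 0.05 were 11.7% for SB590885 and 5.62% for PD325901. Those at an adjusted p under 0.05, without and with the block, are as for the targets. TRIB3, a pseudokinase that binds AKT, was the 1 gene called between the inhibitors, beside 1.78% of all probe sets. It was 0.92 higher with SB590885 (10.17 ± 0.26 against 9.25 ± 0.18, SD, n = 4, limma adjusted p = 0.00271). SGK1, a kinase related to AKT that also phosphorylates FOXO3 and was named after its values were seen, read 11.39 to 12.38 with DMSO, 11.10 to 11.63 with SB590885 and 10.18 to 11.28 with PD325901. Its PD325901 arrays lay below every DMSO array, and the difference of -1.12 passed with the block and not without it (limma adjusted p = 0.0986).

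TSC22D3 is also a classical target of the glucocorticoid receptor. Of 11 measured glucocorticoid-responsive genes, a list that includes TSC22D3, TXNIP and CITED2, only TSC22D3 passed between SB590885 and DMSO without the block. There 1.01% of all probe sets were called as higher. With the block 5 rose and 1 fell, beside 6.56% and 6.83% of all probe sets. NR3C1, the receptor itself, averaged 9.60 ± 0.15 with DMSO, 9.94 ± 0.16 with SB590885 and 9.66 ± 0.22 with PD325901. FKBP5, a target of the receptor, averaged 12.25 ± 0.22, 12.09 ± 0.14 and 12.01 ± 0.32 in that order. FKBP5 does not stand for the list. Over the 11 genes the median difference from DMSO was 0.28 with SB590885 and -0.08 with PD325901. Over all genes it was 0.004 and -0.003. Between PD325901 and DMSO 0 of the 11 passed by limma, with 1 at an unadjusted p under 0.05 beside 5.62% of all probe sets.

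The genes whose values ran most like those of TSC22D3 over the 12 arrays, after the mean of arrays with the same R mark was subtracted, were SOS2 (Pearson r = 0.990), LINC01419 (0.988), H2AC25 (0.982), TENM1 (0.979) and ERN1 (0.978), out of 12512 genes compared. For CCNG2 they were HBP1 (0.984), C2orf74-DT (0.980), ANKRD11 (0.974), EPM2AIP1 (0.974) and ZFYVE1 (0.972). For FOXO3 they were YPEL5 (0.973), PNPLA8 (0.968), NEU1 (0.965), FAM117A (0.961) and TDRKH (0.954). TSC22D3 and CCNG2 had r = 0.950 with each other, FOXO3 and CCNG2 0.868 and FOXO3 and TSC22D3 0.785. All of these were below the values of the genes named above for the same members. Not all members ran together. With TSC22D3, KLHL24 had 0.879, TXNIP 0.685, FOXO1 0.337, RBL2 0.151, FOXO4 -0.116 and CITED2 -0.154. These are descriptions over 12 arrays that all genes share, 4 of them SB590885 arrays on which TSC22D3 and CCNG2 were high. YPEL5, the gene most like FOXO3, averaged 8.40 with DMSO, 8.88 with PD325901 and 9.34 with SB590885. SOS2, most like TSC22D3, averaged 8.39, 8.33 and 9.04 in that order.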

How the data were processed

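The deposited table holds log2 values per probe set, made by the authors with RMA in R 3.0.1, per the submitters' processing notes. They do not state whether all 12 arrays were normalised in 1 run. Total RNA was amplified, biotin-labelled and hybridised, per the labels. The 62 control probe sets were left out. A platform annotation gave 41091 probe sets 1 symbol, 1801 several and 11721 none, and a gene with several probe sets was represented, where 1 value was needed, by that with the highest mean. Group means over 12 arrays were fitted with limma 3.58.1 in R 4.3.3 (eBayes without trend), and p-values were adjusted by Benjamini-Hochberg over 54613 probe sets and called under 0.05. The script was checked on simulated data. No filter on low values was used, and the number of arrays limits the precision.

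Replicate numbers pair the arrays: deviations from group means correlated at 0.522 to 0.869 for the 12 pairs with the same number, and 12 of 12 arrays had their best partner at their own number. Pairs with another number correlated at 0.242 to 0.611 within a set of arrays and -0.682 to -0.476 across sets. The comparisons share control or inhibitor arrays, so no overlap between them is given. The members and lists were chosen with earlier results of these data known. Named genes were all 10 members, up to 4 called genes with the smallest p per list and comparison, and the 5 genes most like TSC22D3, CCNG2 and FOXO3. Others fall outside this rule, and several are marked as named after their values were seen. TNFSF10, NR3C1, FKBP5, CCNG1 and RB1 carry no such mark but were also named outside the rule, with results of these data known.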

Additional observations from a re-analysis of the deposited data

Results flagged for a closer look

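In 2 of the 108 groups of 4 arrays examined, 1 array stood apart from the others; chance alone gives about 1 in 20 groups. FOXO4 205451_at read 7.15 on SB590885 array 4, with the other 3 between 7.02 and 7.03 (gap over range 0.92). FBXO32 241763_s_at read 6.75 on SB590885 array 3, with the others between 6.83 and 6.84 (gap over range 0.832). The mean over all arrays was 7.04 for the FOXO4 probe set and 6.73 for the FBXO32 one, above and below the median of probe set means, 6.92. Neither was called in a comparison.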

How the results depend on the processing

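No probe set called in a comparison changed direction under any alternative run. Between SB590885 and DMSO the 10 called probe sets became 17 with the replicate block, 15 with a term for the R mark and 16 on arrays without the mark alone. When only these 2 groups were fitted, calls were lost for CCNG2 211559_s_at, KLHL24 221986_s_at and FBXO32 225803_at (limma adjusted p = 0.0523, 0.0855 and 0.0813). Leaving out 1 array gave 2 to 12. With 1 probe set per gene, or the mean of a gene's probe sets, 3 of the 10 genes were called, a count not comparable with one over probe sets. Between PD325901 and DMSO the 0 became 2 with the replicate block or with a term for the R mark, 3 on arrays without the mark alone, 2 on arrays with it alone and 1 when only the 2 groups were fitted; it was 0 under every single array left out. Between SB590885 and PD325901 the 3 became 18 with the replicate block, 14 with a term for the R mark, 14 on arrays without the mark alone, 7 on arrays with it, 1 after centring each array on its median and 6 after quantile normalisation, and 1 to 8 with 1 array left out. Alternatives added after seeing the data were the arrays numbered 2 left out of all groups, which gave 0, 0 and 0 in these comparisons, and the block without 1 replicate number, which gave 15 to 17, 2 and 13 to 17. With the block 13.4%, 4.81% and 12.9% of all probe sets were called in these comparisons, against 1.96%, 0.346% and 1.78% without it. With the R mark as a term the shares were 12%, 3.69% and 11.5%. Shares of all probe sets for most other alternatives are not given, so no change in these counts is read as a result about the FOXO genes. The fits on 1 set of arrays have 2 arrays a group, and gene-level fits test fewer features. Otherwise the cause of these changes was not tested. Centring shifted the median of all probe sets by -0.02 between SB590885 and DMSO. Low signal limits the FBXO32 values, all below the median of probe set means.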

Other observations

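Relatives and partners of the target genes were read from a list of 28 measured genes, also chosen with results known. Between SB590885 and DMSO 0 rose and 1 fell in the limma fit over 12 arrays, beside 1.01% and 0.947% of all probe sets. With the block 5 rose and 3 fell, beside 6.56% and 6.83% of all probe sets. MLX, the partner through which glucose-sensing factors bind the TXNIP promoter, fell by 0.36 on the log2 scale (10.08 ± 0.04 against 10.44 ± 0.07, SD, n = 4, adjusted p = 0.0123), with no overlap between the arrays; the call was lost with an intensity trend and without the arrays numbered 2. ARRDC3, an arrestin-like relative of TXNIP named after its values were seen, differed by 0.63 and was called with the block alone (adjusted p without it 0.449). CCNG1, the relative of CCNG2 known as a p53 target, differed by 0.29 (called with the block alone), and RB1, the relative of RBL2, by -0.23 with SB590885 and -0.49 with PD325901, both called with the block alone. Between PD325901 and DMSO 0 of the 28 passed without the block, with 1 at an unadjusted p under 0.05, beside 5.62% of all probe sets.

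The 3 probe sets shared by FOXO3 and FOXO3B could not be given to 1 gene. They differed from DMSO by 0.40, 0.22 and 0.02 with SB590885 and by 0.12, 0.11 and 0.05 with PD325901, for 204132_s_at, 210655_s_at and 217399_s_at.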
